A study of Arabidopsis thaliana with 12 samples.

Results

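The dehydration response of cost1 seedlings of Arabidopsis thaliana was measured in 6 of the 12 RNA-seq libraries of the series, taken by their genotype and treatment labels. Of these, 3 libraries came from cost1 seedlings dehydrated for 6 h and 3 from cost1 control seedlings; the other 6 libraries hold the same 2 treatments of wild type (WT). The cost1 line carries a mutation of COST1 (AT2G45260), whose allele the labels do not name, and no other genetic change is named in the labels. Per the labels, seedlings grew upright on plates of medium for 10 days, seedlings of like size were laid on a petri dish to dehydrate, and poly(A) RNA of whole seedlings was sequenced. Both cost1 groups share genotype, age and medium, and the labels name no handling of the control seedlings beyond growth. Nothing in the labels tells whether a group's 3 libraries derive from separate plants or dishes, and each p-value below therefore speaks only of variation among these libraries, part of which may be technical.

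When a plant loses water, abscisic acid (ABA) is made from carotenoids and bound by receptors of the PYR/PYL/RCAR family. The bound receptor holds back the clade A protein phosphatases 2C (PP2Cs), which frees SnRK2 kinases to act on ion channels and on the ABF bZIP transcription factors. ABFs bind an element with the core ACGTG in promoters, while DREB2 and CBF factors act on a separate drought and cold element. The targets include dehydrins and other LEA proteins, enzymes of proline and raffinose synthesis, and the PP2Cs themselves. COST1 is a plant-specific protein known to attenuate autophagy, the delivery of cell contents to the vacuole in vesicles coated with ATG8, and the series sets out to relate it to growth and drought tolerance.

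COST1 itself was read first, as the mutated gene. Dehydrated cost1 libraries held 9.26, 10.9 and 9.73 CPM of COST1 (replicates 1, 2 and 3, the order used throughout), against 7.97, 7.48 and 5.33 CPM in cost1 controls. CPM here are expected counts scaled to the library total with TMM factors. WT held 32.0, 25.8 and 25.9 CPM when dehydrated and 27.1, 32.7 and 29.3 CPM in control, so all 6 cost1 libraries lay below all 6 WT libraries, as the genotype labels would have it. Within cost1 the dehydrated libraries lay above the controls without overlap (log2 change 0.53 ± 0.18, SE; adjusted p = 0.0282), and without control replicate 2 the change was 0.59. The call was lost without control replicate 3 (0.36, adjusted p = 0.118), without dehydrated replicate 2 (0.46, adjusted p = 0.0907) and without dehydrated replicate 3 (0.54, adjusted p = 0.0541), on both FPKM scales, with no scaling and in a fit of the cost1 libraries alone. COST1 overlaps AT2G45270 on the opposite strand, and no source states whether the counting used strand.

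The cost1 libraries held 12320257 to 13023520 clean reads and expected counts summing to 5884728 to 6223687. Control replicate 2 stood apart from the other controls. Across genes its correlation of log2 levels was 0.9468 with control 1 and 0.9537 with control 3, while controls 1 and 3 reached 0.9847. The 6 libraries were also placed on a scale where 0% is the mean of the controls and 100% the mean of the dehydrated libraries, with the library in question left out of the mean and out of the fit that chose the genes. At the median of genes called higher by at least 2-fold, dehydrated replicates 1, 2 and 3 lay at 74%, 116% and 98.8% of the way, and controls 1, 2 and 3 at -3.19%, 16.7% and -4.66%. At the median of genes called lower by at least 2-fold, the dehydrated libraries lay at 55%, 124% and 99.9% and the controls at -1.63%, 22.5% and -3.15%. Dehydrated replicate 1 was thus the least shifted of its group, and control 2 was the control nearest to the dehydrated libraries. The first principal component held 79.7% of the variance and put the dehydrated libraries at 51.1, 107 and 81.1 and the controls at -90.2, -58.9 and -89.7.

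**Figure D1:**
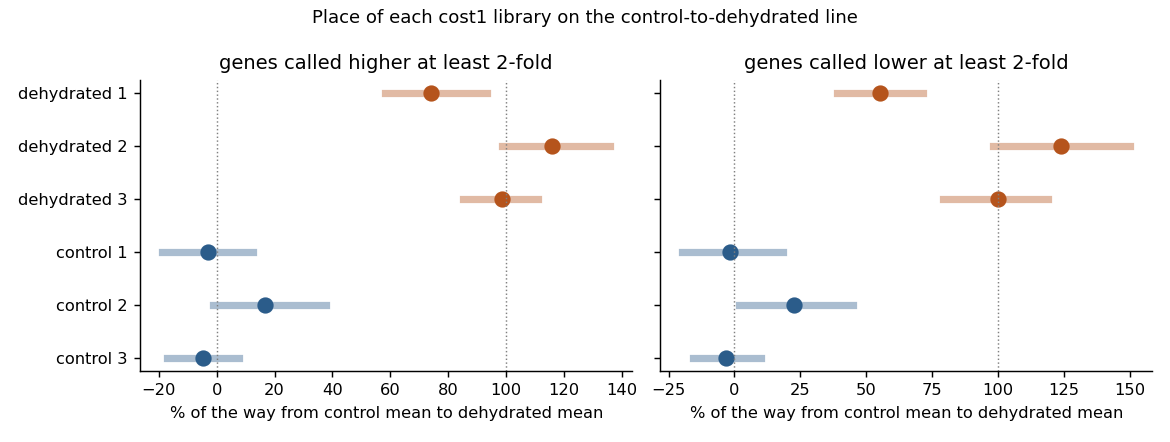
Each row is a cost1 library, and the horizontal axis is its place, in percent, on the line from the control mean (0%) to the dehydrated mean (100%); points are medians over genes called higher (left panel) or lower (right panel) by at least 2-fold, and bars run from the first to the third quartile of genes. Dehydrated replicate 1 sits at 74% and 55%, control 2 at 16.7% and 22.5%, and the other controls within 5 percentage points of 0%.

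The seedling label was set against markers of other organs. The summed shoot markers lay at 12723 to 19413 CPM in dehydrated libraries and 22754 to 32990 CPM in controls. Nearly all of this came from the photosynthesis genes RBCS1A, LHCB1.3 and LHCB2.1. Of the other shoot markers, STM had 15 to 82 counts per cost1 library, and CLV3 and WUS had at most 1 and 2 counts. Summed stomatal markers lay at 58.7 to 77.5 CPM in dehydrated libraries and 105 to 139 CPM in controls. Of 13 root markers, SCR, SHR and WOX5 passed the filter on low counts. SCR, which patterns the root ground tissue, had 33.0, 25.4 and 21.6 CPM in dehydrated libraries, against 43.8, 53.2 and 43.5 CPM in controls. SHR, which acts with it, had 8.92, 7.16 and 5.87 CPM, against 14.0, 16.6 and 14.9 CPM in controls, and both were called lower. WOX5, a marker of the root stem cell niche, had 16, 13 and 18 counts, against 2, 2 and 0 in controls, and was called higher (log2 change 3.57 ± 0.81; adjusted p = 0.00333). The other 10, which include PIN2, COBL9 and PLT1, summed to 8, 9 and 12 counts in dehydrated libraries and 17, 6 and 21 in controls. No one of these 10 exceeded 7 counts in any cost1 library labelled seedling. Most root markers thus stood near 0, and how much root the samples held was not tested. Since these are bulk samples, fewer cells of a type and less RNA per cell cannot be told apart in any result given here.

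After 6 h of dehydration, 9585 of the 18809 genes tested (51.0%) differed between dehydrated and control cost1 seedlings at an adjusted p under 0.05 in edgeR's quasi-likelihood test. The call was higher for 4974 genes (26.4%) and lower for 4611 (24.5%), and at least 2-fold higher for 3029 (16.1%) and lower for 1703 (9.05%). The rises were larger than the falls: 750 genes rose by at least 3 on the log2 scale and 212 by at least 5, while 73 and 11 fell by as much. The median log2 change of all genes tested was -0.03. Of the called genes 51.9% were higher, and 40.9% with no scaling beyond the library totals, a choice that moves the median of all genes by -0.15. The groups did not overlap for 9010 of the called genes (94%), beside 10658 of all genes tested (56.7%).

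Without control replicate 2 the response was made of 9267 calls among 19060 genes (48.6%), of which 4951 were higher (26.0%) and 4316 lower (22.6%), and 3274 at least 2-fold higher (17.2%) and 1839 lower (9.65%). Of the 9585 calls, 8470 (88.4%) were made again in the same direction: 4516 of the rises (90.8%) and 3954 of the falls (85.8%). Among the 18809 genes tested with all libraries, another 371 were called higher and 341 lower only without control 2, and 0 changed direction; the remaining calls were of genes that passed the filter on low counts only without it. Of the 4732 genes called at least 2-fold, 4548 were called again. The median change of the genes called higher was 1.26 with all libraries and 1.33 without control 2, and that of the genes called lower was -0.83 and -0.84. Leaving out each of the other 5 cost1 libraries in turn gave 7608 calls (without dehydrated replicate 2) to 10198 (without dehydrated replicate 1), again with 0 genes reversed.

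**Figure D2:**
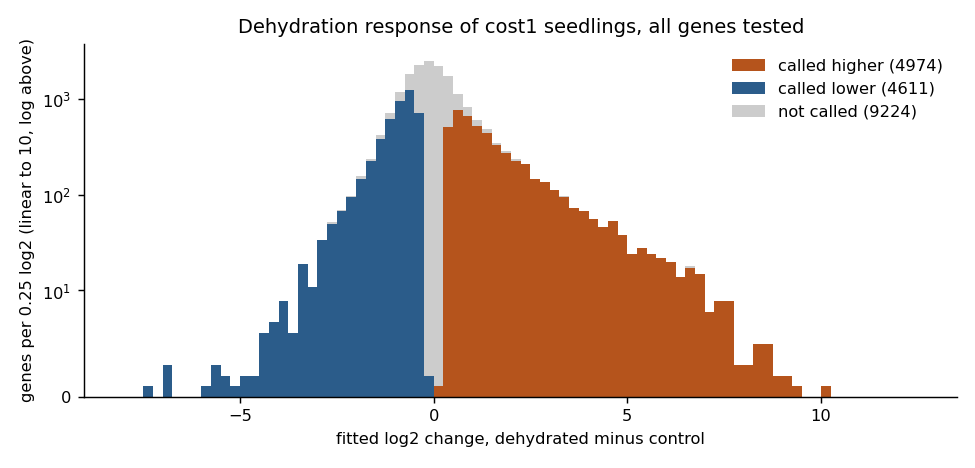
Histogram of the fitted log2 change, dehydrated minus control, for the 18809 genes tested, in bins of 0.25, on a vertical axis that is linear to 10 genes and logarithmic above; colours mark genes called higher, called lower and not called. The right-hand tail is longer: 212 genes rose by at least 5 on the log2 scale and 11 fell by as much.

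For genes given with a fitted change below, the value without a cost1 library is added where leaving that library out ended or made the call or moved the fold change by over 1.5 times. A list's counts are to be read beside the 26.4% of all genes called higher and the 24.5% called lower. CPM of different genes are not compared.

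Promoters were searched for the ABA-responsive core ACGTG, on either strand, in the 250 bases before each gene's start, and for CACGTG, a G-box, which holds that core on both strands. The 3 promoters printed here are those of RD20, a calcium-binding caleosin used as a dehydration marker, and of the 2 LEA genes with the smallest p among those that hold CACGTG, so they were picked for the motif and show its layout only. They are read in the direction of the gene from RefSeq TAIR10.1, with every match in capitals.
RD20 (AT2G33380), chr2:14146556-14146805, minus strand: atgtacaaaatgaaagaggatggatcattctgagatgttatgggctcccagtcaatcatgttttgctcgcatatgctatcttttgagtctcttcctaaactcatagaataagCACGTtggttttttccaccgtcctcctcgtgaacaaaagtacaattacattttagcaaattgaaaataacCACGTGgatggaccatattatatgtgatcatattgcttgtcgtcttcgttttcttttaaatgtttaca
LEA4-5 (AT5G06760), chr5:2090431-2090680, minus strand: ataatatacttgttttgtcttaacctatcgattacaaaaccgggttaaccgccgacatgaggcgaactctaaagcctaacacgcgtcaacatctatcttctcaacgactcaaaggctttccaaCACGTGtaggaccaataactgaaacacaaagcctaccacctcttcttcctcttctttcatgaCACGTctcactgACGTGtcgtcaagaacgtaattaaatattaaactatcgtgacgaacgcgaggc
LEA7 (AT1G52690), chr1:19619474-19619723, plus strand: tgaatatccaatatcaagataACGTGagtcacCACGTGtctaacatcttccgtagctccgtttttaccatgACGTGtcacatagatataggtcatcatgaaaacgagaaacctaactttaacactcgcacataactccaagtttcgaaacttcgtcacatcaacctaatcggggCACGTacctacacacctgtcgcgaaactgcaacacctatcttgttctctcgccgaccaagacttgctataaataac
The share of promoters with ACGTG was 31.8% among genes called higher, 39.1% among genes called at least 8-fold higher and 18.7% among genes called lower, beside 23.7% of all genes tested (4454 of 18764 with a promoter). CACGTG was found in 12.1% of promoters of genes called higher and 4.64% of those called lower, beside 7.61% of all. Without control 2 the shares with ACGTG were 32.4% for genes called higher and 18.6% for genes called lower. The core stood in 13 of 15 LEA promoters, 11 of 16 promoters of dehydration markers and 8 of 10 JAZ promoters, and in 5 of 8 PP2C, 4 of 7 dehydrin, 6 of 13 stress NAC, 7 of 16 flavonoid and 14 of 44 autophagy promoters. Of the lists with more falls than rises, it stood in 6 of 40 SAUR promoters, below the share of all genes, but in 13 of 35 light-harvesting, 4 of 14 DNA replication and 7 of 25 ribosomal protein promoters, above that share. These are counts of letters in a fixed window, and say nothing of binding.

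The 12 largest rises were picked among genes called with and without control 2, with groups that do not overlap and at least 10 FPKM in the higher group. They included transcription factors, membrane proteins and genes of unknown role. KIN1, a small hydrophilic cold- and drought-induced protein, had 78.1, 425 and 204 CPM in dehydrated libraries, against 0.638, 0.796 and 0.592 CPM in controls (log2 change 8.41 ± 0.70; adjusted p = 3.31e-06). TSPO, an ABA-induced membrane protein that is itself removed by autophagy, had 82.1, 621 and 214 CPM, against 0.478, 2.07 and 0.888 CPM in controls (8.04 ± 0.84). RAP2.6, an ERF-type transcription factor, had 82.8, 423 and 236 CPM, against 1.12, 1.75 and 0.148 CPM in controls (7.94 ± 0.75). In each of these genes dehydrated replicate 2 was the highest and replicate 1 the lowest of the dehydrated libraries. AT4G28140, another ERF-type gene, had 138, 265 and 369 CPM, against 1.12, 0.478 and 0 CPM in controls (8.90 ± 0.67). AT5G05220, which has no known role, had 32.7, 128 and 90.6 CPM against 1 count over the 3 controls, which lay in control 2, a ratio of 1602 with a 95% counting interval of 287 to 63330. AT2G35730, a heavy metal-associated domain protein, was at 0 in every control and at least 44.2-fold higher in dehydrated libraries. The neighbours AT4G33467 and SCRL22 also stood in this group, but they overlap each other and their reads may be shared. Fitted changes of this size rest on a few control counts: without control 2 that of TSPO was 8.75 and that of RAP2.6 8.61, without dehydrated replicate 2 they were 6.99 and 7.31 and that of KIN1 7.67, and without control 1 those of AT4G28140, AT4G33467 and SCRL22 were 10.0, 9.56 and 9.45, with AT4G28140 at 8.30 without control 3.

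The 12 largest falls, picked by the same rule, were of genes of several kinds. They included the ABA receptors PYL6 and PYL4, CRK30, a cysteine-rich receptor-like kinase (-5.10 ± 0.70), OCT3, an organic cation transporter (-4.37 ± 0.66), and FTM1, a stearoyl-ACP desaturase family member (-4.28 ± 0.62). SAUR63, a small auxin-induced protein that promotes cell expansion, had 0, 0 and 0.335 CPM in dehydrated libraries, against 6.54, 7.48 and 6.07 CPM in controls, a ratio of control to dehydrated of 58.4 with a counting interval of 15.8 to 487. EXPA8, an expansin that loosens cell walls, had 4.21, 0.537 and 1.01 CPM, against 29.3, 44.3 and 42.9 CPM in controls (-4.31 ± 0.49; adjusted p = 3e-05). FLA9, a fasciclin-like arabinogalactan protein of the cell surface, had 10.6, 1.79 and 1.34 CPM, against 192, 52.2 and 161 CPM in controls (-4.87 ± 0.66; adjusted p = 0.000117). Among the dehydrated libraries replicate 1 was the highest for EXPA8 and FLA9, and control 2 was the lowest control for FLA9. AT2G45180, a gene of the lipid-transfer and albumin superfamily, was the most abundant of the 12, with 153, 9.49 and 22.5 CPM, against 1483, 374 and 1233 CPM in controls (-4.06 ± 0.90). Without dehydrated replicate 1 the changes of EXPA8, FLA9, AT2G45180, CRK30 and OCT3 were -5.61, -6.42, -6.01, -6.84 and -5.83, and that of FTM1 without dehydrated replicate 2 was -5.61. The fitted change of SAUR63, -5.64, went to -8.36 without dehydrated replicate 3, the library that holds its reads.

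**Figure D3:**
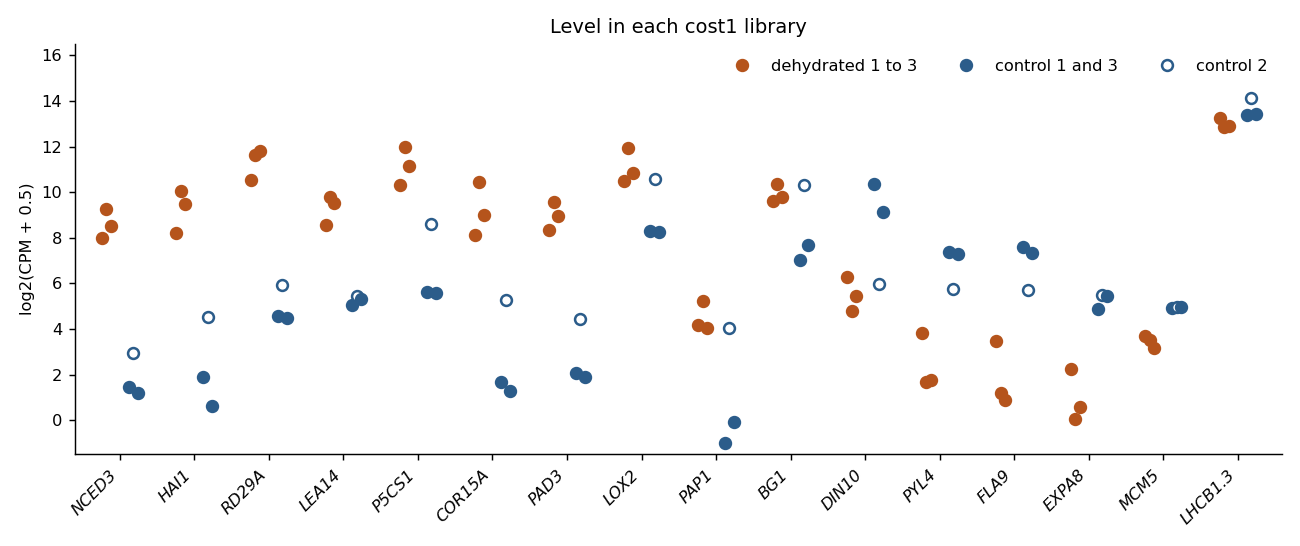
Level of 16 genes described in the text, as log2(CPM + 0.5), in each cost1 library: the 3 dehydrated libraries as orange points, controls 1 and 3 as filled blue points and control 2 as an open blue circle. Control 2 lies with the other controls for LEA14, EXPA8 and MCM5, between the groups for P5CS1 and PYL4, and inside the dehydrated range for LOX2, BG1 and DIN10.

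Genes of ABA synthesis, breakdown, perception and signalling all changed in part. NCED3, the dioxygenase that limits ABA synthesis under drought, had 254, 612 and 365 CPM in dehydrated libraries, against 2.23, 7.17 and 1.78 CPM in controls (log2 change 6.79 ± 0.50; adjusted p = 1.31e-06; 7.67 without control 2). In the synthesis list 5 of 7 tested members were called higher and 0 lower (median 1.39), and without dehydrated replicate 2 it was 3. They included ABA3 (1.78 ± 0.22), which supplies the molybdenum cofactor, and AAO3 (1.39 ± 0.21), the aldehyde oxidase that uses it. Genes of ABA breakdown rose beside them: CYP707A1, an ABA 8'-hydroxylase, had 17.7, 47.1 and 33.4 CPM, against 2.87, 4.14 and 2.96 CPM in controls (3.29 ± 0.39; adjusted p = 3.96e-05). Of the 7 breakdown and conjugation genes 5 were called higher, and 3 without any one of controls 1 and 3 and dehydrated replicates 2 and 3. BG1, a glucosidase that releases ABA from its conjugate, had 786, 1317 and 879 CPM, against 131, 1270 and 205 CPM in controls. Its groups overlapped through control 2, and it was not called with all libraries (0.89; adjusted p = 0.261) but was called without that control (2.57; adjusted p = 7e-05) and with the replicate number as a block (adjusted p = 0.00746).

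More ABA receptor genes fell than rose, and all clade A phosphatase genes rose. Of 9 tested ABA receptors 5 were called lower and 2 higher (median -1.16), and all 8 clade A PP2Cs were called higher (median 4.33; 4.68 without control 2). PYL4 had 13.6, 2.69 and 2.85 CPM in dehydrated libraries, against 165, 53.5 and 154 CPM in controls (-4.27 ± 0.65; adjusted p = 0.000261), and PYL6 fell by 5.35 on the log2 scale (SE 0.68). PYL7, by contrast, had 136, 218 and 254 CPM, against 24.9, 19.9 and 15.2 CPM in controls (3.34 ± 0.35; adjusted p = 1.69e-05). Control 2 was the lowest control for PYL4 and PYL6, and dehydrated replicate 1 the highest dehydrated library, without which the changes were -5.48 and -6.47. Among the phosphatases, ABI1 had 628, 1221 and 1032 CPM, against 46.9, 70.2 and 54.2 CPM in controls (4.07 ± 0.26; adjusted p = 5.07e-07). HAI1, a PP2C named for its strong ABA induction, had 300, 1068 and 711 CPM, against 3.19, 22.6 and 1.04 CPM in controls (6.28 ± 0.84; adjusted p = 0.000103). Control 2 was the highest control for all 8, and HAI1 stood at 8.37 without it. The summed PP2C level was 2038, 4605 and 3373 CPM in dehydrated libraries, against 171, 339 and 172 CPM in controls. The summed receptor level, by contrast, overlapped between the groups, with 289, 348 and 418 CPM in dehydrated libraries, against 510, 222 and 450 CPM in controls.

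Of the SnRK2 kinase genes 4 of 10 were called, in both directions, and most ABF and ABI5 factor genes rose. OST1 (SnRK2.6), the guard cell kinase that closes stomata, had 31.0, 75.8 and 40.1 CPM in dehydrated libraries, against 19.0, 21.3 and 21.0 CPM in controls (1.26 ± 0.26; adjusted p = 0.0019). Of 10 SnRK2 genes 3 were called higher and 1 lower (median 0.04), shares of 30% and 10% beside 26.4% and 24.5% of all genes. SNRK2.4 (0.27 ± 0.10; adjusted p = 0.0456) lost the call without any one cost1 library other than dehydrated replicate 1, without 4 of the 6 WT libraries and with the replicate block (adjusted p = 0.053). SNRK2.8 (-0.90 ± 0.31; adjusted p = 0.0282) lost it without control 1 or 2 or dehydrated replicate 2 or 3. MAPKKK18, an ABA-induced kinase kinase kinase, had 79.9, 261 and 170 CPM, against 0.638, 1.59 and 0.148 CPM in controls (7.74 ± 0.56; adjusted p = 1.21e-06; 8.72 without control 2). Of 8 ABF and ABI5 factors 6 were called higher and 0 lower (median 2.2), ABI5 by 4.51 ± 0.40 and ABF3 by 2.98 ± 0.35. Without control 2 the count was again 6 of 8.

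Drought transcription factors of other families rose as groups. All 6 tested CBF, DDF and DREB2 genes were called higher (median 3.04, also with CBF4 at its bound), and 12 of 13 stress NAC factors (median 3.37; 13 of 13 without control 2), with 0 lower in either list. DREB2A, which binds the drought-responsive element, had 68.7, 90.4 and 133 CPM in dehydrated libraries, against 3.19, 2.71 and 3.7 CPM in controls (4.92 ± 0.45; adjusted p = 6.4e-06). CBF4 was at 0 in every control and had 2.86, 10.2 and 9.06 CPM when dehydrated, at least 47.1-fold higher. For both genes the lowest dehydrated library lay well above the highest control. RD26, a NAC factor of ABA and jasmonate signalling, had 212, 804 and 498 CPM, against 10, 7.96 and 6.07 CPM in controls (5.97 ± 0.46; adjusted p = 1.96e-06). NAP, a NAC factor that promotes leaf senescence, rose by 4.37 ± 0.32 and JUB1, a NAC factor that delays it, by 4.53 ± 0.35. HD-Zip class I genes split: of 12, 5 were called higher and 2 lower, with HB7 at 4.2 ± 0.46 (4.82 without control 2) and HB12 at 4.36 ± 0.42, both growth-restraining ABA targets, against HB13 at -2.21 ± 0.21 and HB5 at -1.26 ± 0.23. Of 18 heat shock factors 12 were called higher and 1 lower, led by HSFA6B, an ABA-dependent member, with 49.5, 49.1 and 93.6 CPM against 1.28, 0.159 and 0.444 CPM in controls (6.64 ± 0.44; 7.61 without control 1). The 1 lower call was lost without any one cost1 library other than control 2, without any one WT control and on both FPKM scales.

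Genes of protective proteins rose. All 7 dehydrins and all 15 other LEA genes tested were called higher, with medians of 4.63 and 4.21 (4.85 and 4.65 without control 2, when 6 of the 7 dehydrins and all 15 LEA genes were called), as were 15 of 16 dehydration marker genes (median 4.38; 5.15 without control 2). ERD14, a dehydrin, had 1429, 2149 and 2062 CPM in dehydrated libraries, against 213, 223 and 224 CPM in controls (3.10 ± 0.18; adjusted p = 3.43e-07). LEA14 had 380, 877 and 728 CPM, against 32.4, 43.0 and 38.8 CPM in controls (4.12 ± 0.29; adjusted p = 1.14e-06). In both genes the controls differed little, control 2 included, and every dehydrated library was far above them. RD29A, a hydrophilic protein whose promoter is the textbook drought reporter, had 1491, 3172 and 3564 CPM, against 23.3, 60.8 and 22.1 CPM in controls (6.28 ± 0.47; adjusted p = 1.49e-06; 6.92 without control 2). COR15A, which stabilises chloroplast membranes, had 278, 1377 and 511 CPM, against 2.71, 37.7 and 1.92 CPM in controls (5.68 ± 0.97; adjusted p = 0.000555). RD20, whose promoter is printed above, had 724, 3128 and 1554 CPM, against 6.22, 61.5 and 4.88 CPM in controls (6.22 ± 0.93; adjusted p = 0.000226). Control 2 was the highest control for all of RD29A, COR15A and RD20, and without it COR15A and RD20 rose by 8.28 and 8.35; without dehydrated replicate 2 these were 4.81 and 5.56, and the dehydrin median was 3.70.

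Most genes of proline and raffinose synthesis rose. Of 4 proline synthesis genes 3 were called higher and 0 lower (median 0.73), and of 6 tested galactinol and raffinose synthesis genes 4 were called higher and 1 lower (median 3.28; 2.22 on the log2(FPKM + 1) scale). P5CS1, the enzyme that limits proline synthesis under stress, had 1283, 3991 and 2260 CPM in dehydrated libraries, against 48.5, 390 and 46.9 CPM in controls (3.96 ± 0.75; adjusted p = 0.00106; 5.72 without control 2). ERD5 (PRODH1), which breaks proline down, had 55.7, 26.5 and 22.3 CPM, against 592, 37.1 and 330 CPM in controls (-3.20 ± 0.70; adjusted p = 0.0028). Control 2 lay inside the dehydrated range for ERD5 and, among the genes that follow, for DIN10; the ERD5 fall was -3.72 without it and -2.40 without control 1. For raffinose, GOLS2, a galactinol synthase, rose by 4.64 ± 0.66 (6.26 without control 2) and RS5, a raffinose synthase, by 3.31 ± 0.30. DIN10, a sugar-repressed gene of the raffinose synthase family, had 78.4, 27.2 and 43.8 CPM, against 1295, 63.1 and 560 CPM in controls (-3.68 ± 0.78; adjusted p = 0.00215; -2.65 without control 1). Of 20 starch breakdown genes 7 were called higher and 0 lower, and 2 of them were much larger than the rest: BAM1, a chloroplast beta-amylase, with 1239, 3118 and 2384 CPM against 85.0, 130 and 84.2 CPM in controls (4.49 ± 0.34; adjusted p = 1.71e-06), and BAM5, a beta-amylase outside the chloroplast, with 306, 394 and 459 CPM against 7.02, 10.8 and 7.99 CPM in controls (5.48 ± 0.30; adjusted p = 2.98e-07). The starch list's median was 0.02.

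Most aquaporin and wax genes rose. Of 18 aquaporins 11 were called higher and 4 lower (median 1.57), and 2 lower without control 1 or without dehydrated replicate 2. TIP2;2, a vacuolar membrane water channel, had 406, 489 and 724 CPM in dehydrated libraries, against 70.8, 76.8 and 72.8 CPM in controls (2.88 ± 0.20; adjusted p = 1.09e-06). The plasma membrane channels PIP2;3 (4.74 ± 0.39) and PIP2;2 (2.96 ± 0.23) rose too, but share much of their sequence and reads may be split between them. PIP1;5 ran the other way, with 49.6, 22 and 25.3 CPM against 212, 98.6 and 199 CPM in controls (-2.39 ± 0.32). Of 15 cuticular wax genes 14 were called higher and 0 lower (median 1.21; 12 higher without control 2). MYB96, the factor that turns on wax synthesis under drought, had 106, 164 and 164 CPM, against 15.9, 18.3 and 19.2 CPM in controls (3.02 ± 0.18; adjusted p = 3.6e-07), and the wax ester synthase gene WSD1 rose by 2.55 ± 0.39 (3.26 without control 2). Suberin genes were split, with 5 of 11 called higher and 2 lower, led by KCS2, a fatty acid elongase, at 4.36 ± 0.57 (5.0 without control 2, 3.64 without dehydrated replicate 2).

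**Figure D4:**
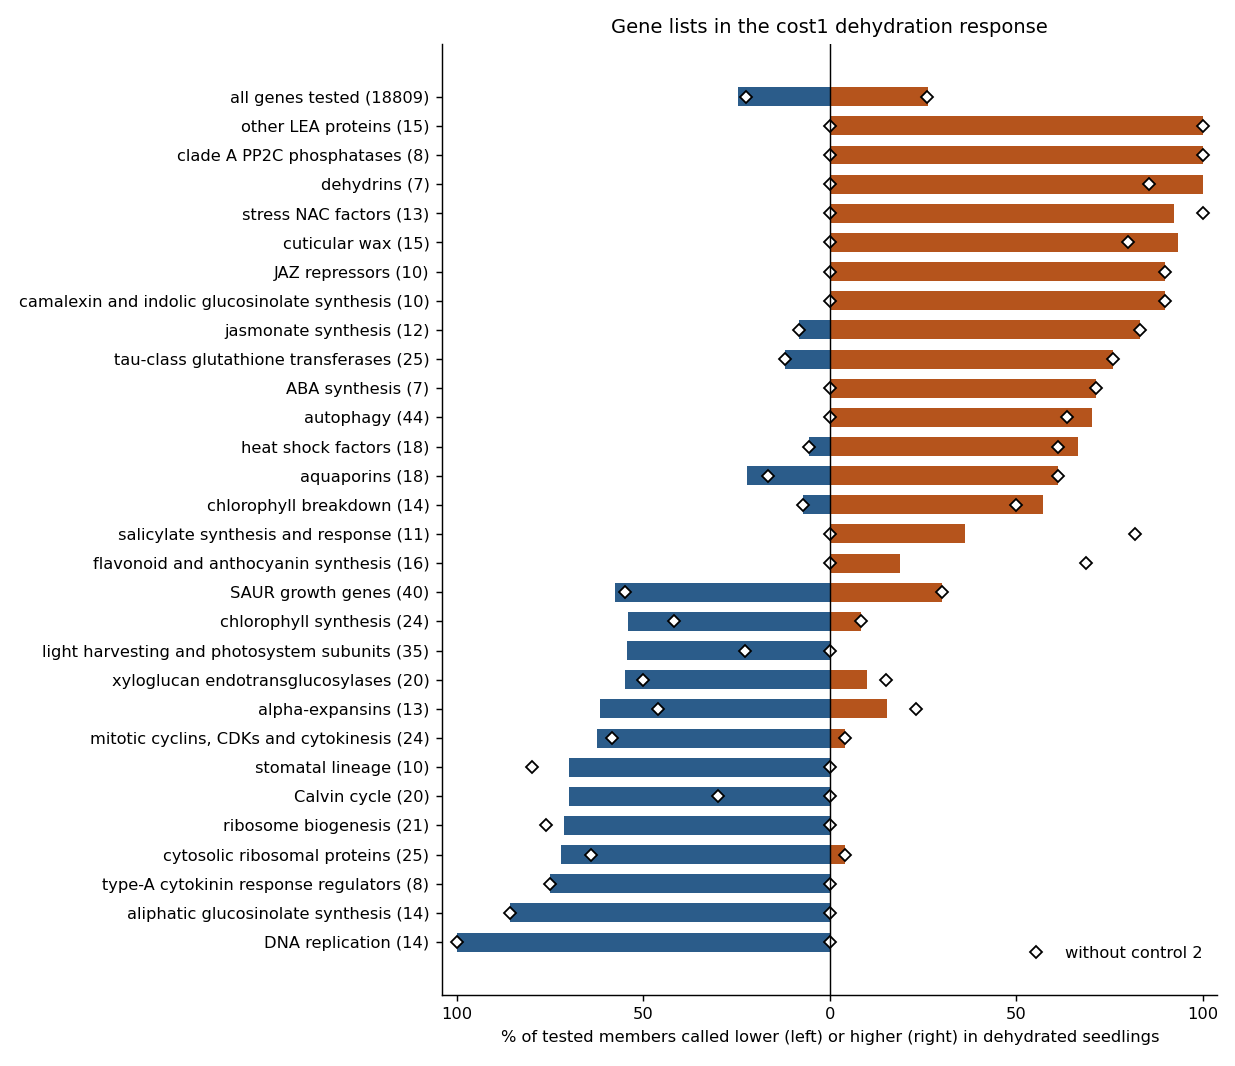
Percent of the tested members of each gene list (number in parentheses) called lower (blue, to the left) or higher (orange, to the right) in dehydrated cost1 seedlings, with the same shares without control 2 as diamonds and all genes tested in the top row. The LEA, PP2C and dehydrin lists reach 100% higher and the DNA replication list 100% lower, while the salicylate and flavonoid lists move most without control 2.

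Most jasmonate genes rose, those that make the hormone and those that remove it alike. Of 12 synthesis genes 10 were called higher and 1 lower (median 2.22; 2.86 without control 2), of 10 JAZ repressor genes 9 were higher and 0 lower (median 2.21), and all 6 inactivation genes were higher (median 3.37; 5 without control 2). AOC3, an allene oxide cyclase, rose by 5.88 ± 0.55 (6.71 without control 2) and OPR3, a reductase that acts in the peroxisome, by 2.58 ± 0.27. JAZ1 had 265, 567 and 464 CPM in dehydrated libraries, against 7.49, 15.6 and 9.18 CPM in controls (5.33 ± 0.41; adjusted p = 1.71e-06). CYP94B3, which oxidises active jasmonate, had 17.3, 87.0 and 46.5 CPM, against 0.159, 0.319 and 0.148 CPM in controls (7.79 ± 0.95; adjusted p = 5.43e-05; 7.13 without dehydrated replicate 2). LOX2, the abundant leaf lipoxygenase, had 1440, 3967 and 1847 CPM, against 317, 1550 and 303 CPM in controls, with control 2 above dehydrated replicate 1. Its change was 1.74 ± 0.61 (adjusted p = 0.0317) with all libraries and 2.97 without control 2, and the call was lost without control 1 (adjusted p = 0.103), control 3 (adjusted p = 0.104) or dehydrated replicate 2 (adjusted p = 0.145).

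Genes of the other hormones moved both ways. In ethylene synthesis 3 of 7 tested members were called higher and 1 lower (median 0.03; 2 lower without control 2). ACS2, a stress-induced ACC synthase of the ethylene route, had 28.1, 69.5 and 49.6 CPM in dehydrated libraries, against 0.319, 0.637 and 0.148 CPM in controls (7.0 ± 0.43; adjusted p = 4.28e-07; 7.62 without control 2), and ACS6 rose by 3.80 ± 0.21. ACS11, another ACC synthase gene, had 1.01, 0.179 and 0 CPM, against 3.51, 1.27 and 2.22 CPM in controls (-2.49 ± 0.70; adjusted p = 0.011; -4.46 without dehydrated replicate 1). GA2OX6, which inactivates gibberellin, had 81.8, 99.0 and 101 CPM, against 2.71, 2.55 and 1.48 CPM in controls (5.38 ± 0.24; adjusted p = 9.94e-08), the smallest adjusted p among the members of all gene lists. ACS2 and GA2OX6 were apart from their controls by over an order of magnitude in every library. Of 8 type-A cytokinin response regulators 6 were called lower and 0 higher (median -1.06), with ARR4 at -1.70 ± 0.17. BRI1, the brassinosteroid receptor, had 84.3, 45.8 and 60.9 CPM, against 230, 152 and 221 CPM in controls (-1.66 ± 0.23; adjusted p = 0.000119), while its co-receptor BAK1 rose by 1.4 ± 0.12. Of 12 brassinosteroid genes 4 were called lower and 1 higher, and without control 2 it was 6 and 1. Of 5 DELLA genes 1 was called higher and 2 lower, and 1 lower without control 3 or without dehydrated replicate 2 or 3. The DELLA gene GAI, a repressor of gibberellin growth responses, fell by 1.67 (SE 0.21) and RGL3 rose by 1.91 ± 0.39.

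In the wall-loosening and auxin-growth lists more genes were called lower than higher, with strong exceptions. Of 40 tested SAUR genes 23 were called lower and 12 higher (median -1.87, also with the 3 members at 0 in every dehydrated library at their bounds; -1.82 without control 2). SAUR78 had 8.25, 0.895 and 2.85 CPM in dehydrated libraries, against 83.2, 29.9 and 58.8 CPM in controls (-3.82 ± 0.53; -4.90 without dehydrated replicate 1), whereas SAUR35 had 6.9, 13.8 and 11.9 CPM against 0.478, 0 and 0.296 CPM in controls (5.28 ± 0.73; 5.97 without control 1). Of 20 xyloglucan endotransglucosylase genes 11 were called lower and 2 higher (median -1.24). XTH9 had 40.6, 9.67 and 11.6 CPM, against 225, 122 and 188 CPM in controls (-3.11 ± 0.46; adjusted p = 0.00021; -4.07 without dehydrated replicate 1). XTH18 ran against it, with 98.1, 87.9 and 60.0 CPM against 6.22, 3.82 and 3.4 CPM in controls (4.19 ± 0.35; adjusted p = 3.59e-06). Of 13 alpha-expansins 8 were called lower and 2 higher, but 5 lower without control 3 and 3 lower without dehydrated replicate 2 or 3; the 2 rises were EXPA16 (2.81 ± 0.24) and EXPA10 (2.61 ± 0.48; 3.51 without control 2). Of 24 Aux/IAA repressors 9 were called lower and 6 higher (median -0.31), IAA4 at -1.78 ± 0.28 and IAA19 at 1.8 ± 0.32.

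Genes of tryptophan-derived and methionine-derived defence metabolites moved apart. Of 10 camalexin and indolic glucosinolate genes 9 were called higher and 0 lower (median 2.96), and of 14 aliphatic glucosinolate genes 12 were called lower and 0 higher (median -1.82; -1.27 without control 2). PAD3, the last enzyme of camalexin synthesis, had 324, 764 and 501 CPM in dehydrated libraries, against 3.67, 20.9 and 3.26 CPM in controls (5.84 ± 0.64; adjusted p = 2.26e-05; 7.26 without control 2). MYB51, the regulator of indolic glucosinolates, had 248, 84.7 and 124 CPM, against 17.5, 10.0 and 12.1 CPM in controls (3.52 ± 0.42; adjusted p = 4.4e-05). MYB28, the regulator of the aliphatic branch, had 28.9, 7.7 and 10.1 CPM, against 74.1, 105 and 89.8 CPM in controls (-2.52 ± 0.51; adjusted p = 0.00176; -3.33 without dehydrated replicate 1). Dehydrated replicate 1 was the highest dehydrated library for both regulators. The counts of the 2 lists, 9 and 12, were the same without control 2.

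The salicylate and flavonoid calls depended on which library was left out, control 2 most of all. With any 1 cost1 library left out, the flavonoid median ran from -0.25 to 2.72 and the salicylate median from 0.26 to 1.68. Of 11 salicylate genes 4 were called higher (median 0.96) with all libraries, 9 without control 2 (median 1.68) and 6 with the replicate block. Of 16 flavonoid and anthocyanin genes 3 were called higher (median 0.71), against 11 without control 2 (median 2.72) and 9 with the block. DFR, a reductase of anthocyanin synthesis, had 12.5, 116 and 14.3 CPM in dehydrated libraries, against 1.43, 71.8 and 1.92 CPM in controls. It was not called with all libraries (0.92; adjusted p = 0.523) but was without control 2 (4.80; adjusted p = 0.00518) and with the block (adjusted p = 0.0206). PAP1, the MYB factor that drives anthocyanin genes, had 17.7, 37.1 and 16.1 CPM, against 0, 16.2 and 0.444 CPM in controls, with an adjusted p of 0.0847 with all libraries (2.09), 0.000258 without control 2 (6.56) and 0.00929 with the block. PR2, a salicylate-induced glucanase, had 14.6, 178 and 29.9 CPM, against 2.23, 119 and 7.4 CPM in controls (0.80; adjusted p = 0.59; 3.93 and 0.0164 without control 2). In all 3 genes replicate 2 was the highest library of both its groups; without dehydrated replicate 2 the fitted changes of DFR and PR2 were -0.90 and -0.94, neither of them called. MYB12, a flavonol regulator, was called in either case (3.05 ± 0.54), as were EDS5, a transporter needed for salicylate synthesis (1.84 ± 0.34), and NPR1, the salicylate receptor (0.96 ± 0.14).

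Autophagy genes, the process COST1 is known for, rose by small amounts in most members. Of 44 tested 31 were called higher and 0 lower (median log2 change 0.57), and 28 higher without control 2 (median 0.55). The summed level was 1720, 2377 and 2133 CPM in dehydrated libraries, against 1360, 1267 and 1353 CPM in controls, with no overlap and with control 2 the lowest. ATG8H, a ubiquitin-like coat protein of the autophagosome, had 27.4, 79.5 and 45 CPM, against 7.17, 7.33 and 5.03 CPM in controls (2.96 ± 0.37; adjusted p = 6.01e-05). ATG18F, a phosphoinositide-binding protein, had 54.2, 87.8 and 63.7 CPM, against 18.7, 20.4 and 19.2 CPM in controls (1.82 ± 0.17; adjusted p = 7.65e-06). ATG14A, of the lipid kinase complex, rose by 1.36 ± 0.17, and ATG9, the membrane protein that supplies lipid, by 1.12 ± 0.16. For these 4 genes every dehydrated library was above every control, but members were named for a small p or a high level. Groups did not overlap for 33 of the 44 autophagy genes, beside 56.7% of all genes tested. NBR1, a cargo receptor, rose by less (0.38 ± 0.10; adjusted p = 0.0097), and that call was lost on the FPKM scales, with no scaling and with the cost1 libraries alone. Among the kinases that govern autophagy 2 of 13 were called higher and 2 lower (median 0.06). These shares, 15.4% each, lay below the 26.4% and 24.5% of all genes. Those called higher were S6K2 (2.81 ± 0.27) and S6K1 (1.31 ± 0.22), kinases that act below TOR. Those called lower were the SnRK1 subunits AKINBETA2 (-0.64 ± 0.17) and AKINBETA1. AKINBETA1 (-1.07; adjusted p = 0.0191) lost its call without control 1 or without dehydrated replicate 1 or 2.

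Genes of chlorophyll loss and of fatty acid breakdown rose in part. Of 14 chlorophyll breakdown genes 8 were called higher and 1 lower (median 0.69). NYE1 (SGR1), which removes magnesium from chlorophyll, had 74.4, 182 and 100 CPM in dehydrated libraries, against 12.3, 22 and 13.9 CPM in controls (2.89 ± 0.31; adjusted p = 2.2e-05), and PAO, the oxygenase that opens the ring, rose by 1.65 ± 0.27. Of 12 dark-induced and senescence genes 6 were called higher and 1 lower (3 higher without dehydrated replicate 2), with WRKY6 at 3.12 ± 0.28. ACX1, a peroxisomal acyl-CoA oxidase, had 701, 1732 and 1217 CPM, against 111, 165 and 103 CPM in controls (3.27 ± 0.31; adjusted p = 8.29e-06), in a beta-oxidation list with 6 of 12 higher and 1 lower. Of 16 genes of branched-chain amino acid breakdown 5 were called higher and 4 lower, 31.2% and 25% beside 26.4% and 24.5% of all genes, so neither share stood far from that of all genes; 1 was called lower without control 1 and 2 without dehydrated replicate 2.

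Photosynthesis genes fell by small amounts, and here control 2 counted for much of the call. Of 35 light-harvesting and photosystem genes 19 were called lower and 0 higher (median -0.70), but 8 without control 2 (median -0.37), 8 without dehydrated replicate 2 and 7 without dehydrated replicate 3. The summed level was 52903, 41137 and 38129 CPM in dehydrated libraries, against 56729, 94756 and 58071 CPM in controls. The groups did not overlap, yet the gap between dehydrated replicate 1 and controls 1 and 3 was far smaller than the excess of control 2 over them. LHCB1.3, whose transcript was among the most abundant of all and which has near-identical copies, was called (-0.66 ± 0.25; adjusted p = 0.041) but not without control 2 (-0.38; adjusted p = 0.173) nor without dehydrated replicates 2 (adjusted p = 0.111) or 3 (adjusted p = 0.109), nor without any one WT control (adjusted p = 0.0514 to 0.0568), nor in the cost1 libraries alone. PSAD1, a stromal subunit of photosystem I, had 961, 754 and 716 CPM, against 1288, 1921 and 1334 CPM in controls (-0.90 ± 0.19; adjusted p = 0.00182; -0.69 without control 2). Of 20 Calvin cycle genes 14 were called lower and 0 higher (median -0.58), with 4 to 6 without any one of controls 1 and 2 and dehydrated replicates 2 and 3. Of 24 chlorophyll synthesis genes 13 were called lower and 2 higher, GUN4, a regulator of magnesium insertion, at -1.12 ± 0.20 and HEMA2, a glutamyl-tRNA reductase, at 2.06 ± 0.20. Nitrogen genes moved both ways. Of 8 tested nitrate uptake and reduction genes 3 were called higher and 4 lower (median -0.69), with changes up to 3.67. Without control 2 it was 2 and 5. Of 10 ammonium assimilation genes 2 were called higher and 6 lower (median -0.46). Without control 2 it was 2 and 3, and without dehydrated replicate 2 it was 1 and 2. Among the falls, NIR1, nitrite reductase, had 89.5, 55.9 and 61.4 CPM, against 280, 358 and 244 CPM in controls (-2.09 ± 0.25; adjusted p = 4.26e-05), and ASN2, an asparagine synthetase, fell by 2.14 (SE 0.27).

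Genes of DNA replication and most mitotic genes fell. With any one cost1 library left out, 14 of 14 DNA replication genes and 14 to 16 mitotic genes were called lower. All 14 DNA replication genes tested were called lower (median -1.38; -1.35 without control 2), against 24.5% of all genes, and 15 of 24 mitotic genes were lower and 1 higher (median -0.80). MCM5, a subunit of the replicative helicase, had 12.3, 11.1 and 8.55 CPM in dehydrated libraries, against 29.8, 30.9 and 30.8 CPM in controls (-1.52 ± 0.17; adjusted p = 2.82e-05). CDKB2;1, a mitotic kinase, had 13.5, 12.7 and 13.9 CPM, against 23.3, 24.7 and 24.0 CPM in controls (-0.84 ± 0.13; adjusted p = 0.000359). Control 2 lay with the other controls in both genes. The cell cycle inhibitor SMR5 ran the other way, with 1.18, 6.81 and 2.52 CPM against 1 count over the controls, a ratio of 66.3 with a counting interval of 11.4 to 2660 (log2 change 5.60, 7.42 without control 2 and 4.69 without dehydrated replicate 2). Of 21 ribosome biogenesis genes 15 were called lower and 0 higher (median -0.73; 16 without control 2), with FIB2, a fibrillarin of the nucleolus, at -1.81 ± 0.20. Of 25 cytosolic ribosomal protein genes 18 were lower and 1 higher (median -0.42); the exception, RPL10C, had 387, 536 and 544 CPM against 160, 162 and 161 CPM in controls (1.60 ± 0.17; adjusted p = 2.18e-05). Of 10 stomatal lineage genes 7 were called lower and 0 higher (median -0.93), with SPCH, the factor that starts the lineage, at -1.03 ± 0.24.

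Genes of protein quality control and detoxification rose in part. Of 5 PUB ubiquitin ligases 4 were called higher and 0 lower. PUB19, which restrains ABA signalling, had 304, 744 and 630 CPM in dehydrated libraries, against 2.23, 8.12 and 0.444 CPM in controls (7.29 ± 0.64; adjusted p = 5e-06; 8.72 without control 2). Of 25 tau-class glutathione transferases 19 were called higher and 3 lower (median 2.06), GSTU11 at 5.59 ± 0.31 and GSTU27 at -2.0 ± 0.33 (-2.62 without dehydrated replicate 1). In the unfolded protein response 5 of 13 were higher and 1 lower (8 higher without dehydrated replicate 1). The 1 lower call was lost without control 1 or 3 or without dehydrated replicate 2 or 3. BZIP60, a transcription factor of the unfolded protein response, had 208, 168 and 144 CPM, against 23.1, 29.8 and 19.4 CPM in controls (2.85 ± 0.19; adjusted p = 6.99e-07), IRE1A rose by 1.23 ± 0.12, and BIP1, the abundant endoplasmic reticulum chaperone, stood at 0.07 ± 0.15 and was not called. Of 7 small heat shock proteins 6 were called higher at low levels (median 2.48), their summed level being 50.5, 29.4 and 43.6 CPM against 12.8, 11.1 and 12.1 CPM in controls. SWEET sugar transporters moved both ways, with 2 of 9 tested called higher and 3 lower (median -0.42). Without control 2 it was 2 and 4, and without control 1 or 3 it was 1 and 1. Their summed level overlapped between the groups. The largest rise was that of SWEET4, a sugar exporter, which had 14.5, 96.2 and 45.5 CPM, against 0, 4.14 and 0.148 CPM in controls (5.19 ± 0.89; adjusted p = 0.000578), at 9.07 without control 2 and 4.39 without dehydrated replicate 2.

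Control replicate 2 was then set against controls 1 and 3 with no test, since it is 1 library. Of 11546 genes with at least 10 FPKM in a cost1 group, it lay at least 2-fold above their mean for 476 and below it for 363, while controls 1 and 3 were that far apart for 108. Control 2 was above the other controls for 8 of 8 PP2C genes (median log2 difference 1.06, beside 4.19 for the dehydrated mean), 15 of 16 flavonoid genes (1.81, beside 2.1) and 10 of 11 salicylate genes (1.26, beside 1.34). It was above them also for 35 of 35 light-harvesting genes (0.66), on the other side from the dehydrated mean (-0.39). For dehydrins (0.03), other LEA genes (-0.05), stress NAC factors (0.02), autophagy (-0.05) and DNA replication (0.13), the median of control 2 was near that of the other controls, while the dehydrated medians were 3.79, 3.47, 3.4, 0.50 and -1.35. It was below them in the median of ABA receptors (-1.03, beside -1.44) and ribosome biogenesis (-0.29, beside -0.84). Some genes were lower in control 2 than in any dehydrated library: AT3G15450, a gene of the aluminium-induced protein type, had 71.5, 35.8 and 109 CPM in dehydrated libraries, against 907, 25.2 and 418 CPM in controls. The call for AT3G15450 (-2.64; adjusted p = 0.0434) was lost without any one of the other 5 cost1 libraries, with -1.62 without control 1, without 4 of the 6 WT libraries, and with the replicate block (-1.82; adjusted p = 0.0998). Why control 2 differs was not tested.

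**Figure D5:**
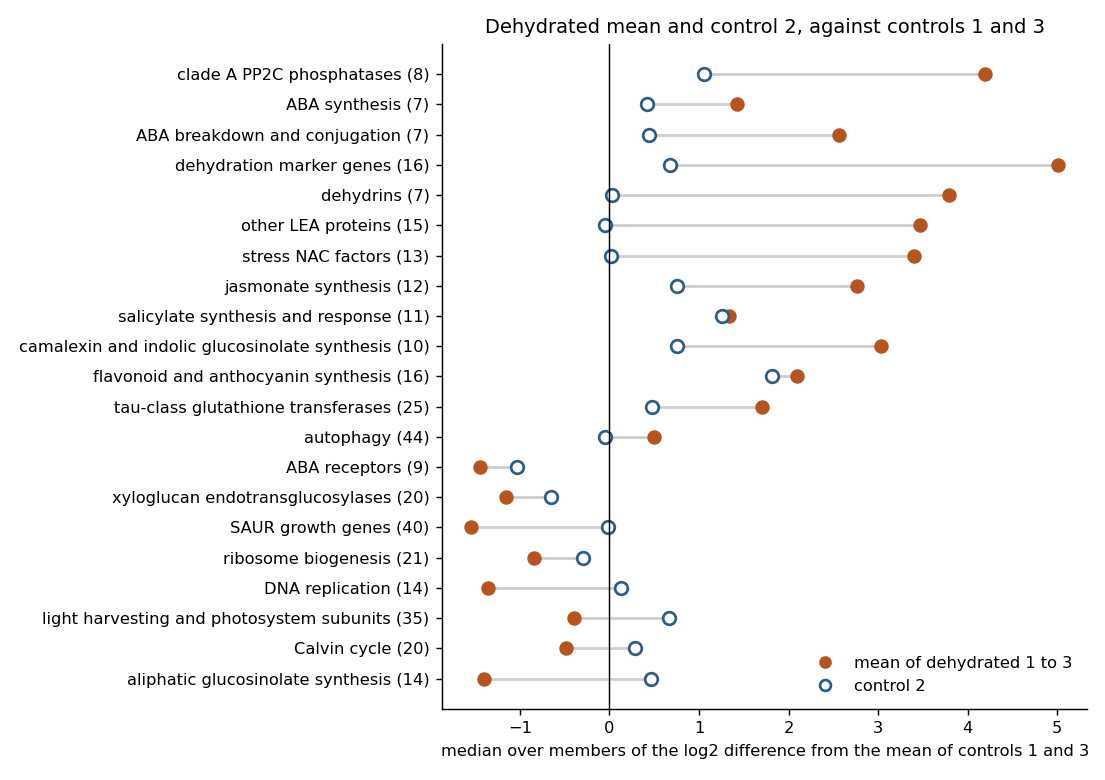
Median over the tested members of each list (number in parentheses) of the log2 difference from the mean of controls 1 and 3, for the mean of the 3 dehydrated libraries (filled orange) and for control 2 (open blue). The 2 points are close for the flavonoid (2.1 and 1.81) and salicylate (1.34 and 1.26) lists, far apart for dehydrins (3.79 and 0.03), and on opposite sides of 0 for light harvesting (-0.39 and 0.66).

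Some genes were called only without control 2, and those given here were picked for that and are both rises. Leaving control 2 out made calls of 371 rises and 341 falls, and ended those of 458 rises and 657 falls. MIPS1, an inositol phosphate synthase that starts inositol and raffinose synthesis, had 603, 465 and 332 CPM in dehydrated libraries, against 125, 577 and 138 CPM in controls. With all libraries it was not called (0.74; adjusted p = 0.206), without control 2 it was (1.83; adjusted p = 6.25e-05), and with the replicate block too (adjusted p = 0.0261). AT3G28220, annotated as a TRAF-like protein, had 82.5, 184 and 112 CPM, against 9.89, 156 and 7.4 CPM in controls (1.13 and adjusted p = 0.278 with all libraries, 3.87 and 1.61e-05 without control 2, 2.25 and 0.00632 with the block). In both, controls 1 and 3 lay below the dehydrated libraries and control 2 lay within or near their range.

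WT seedlings served to ask whether the response differs by genotype. The same fit called 8549 genes in WT (45.5%), 4680 higher (24.9%) and 3869 lower (20.6%), and 1517 lower by at least 2-fold (8.07%). Of the rises called in cost1 82.5% were also called in WT, and of those in WT 87.7% in cost1; of the falls these shares were 68.2% and 81.3%. No gene (0.00%) passed in the difference between the responses, cost1 minus WT, in edgeR's quasi-likelihood test, where 690 genes (3.67%) had an unadjusted p under 0.05 and the smallest adjusted p was 0.999; without control 2 these were 0 and 506. The median SE of that difference was 0.29 on the log2 scale, so a p above the threshold does not show that a gene responded alike. Its median was 0.08 over genes called higher in cost1 and -0.14 over genes called lower. DESeq2 called 1 gene, BAM5 (-2.15; adjusted p = 0.0263), whose change was smaller in cost1, while voom with sample weights and the FPKM scale called 0. Autophagy genes were called higher in 31 of 44 in cost1 and 22 of 44 in WT, with a median difference of 0.24, and no autophagy gene differed between the genotypes by the test.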

How the data were processed

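Poly(A) RNA-seq libraries of 6 cost1 seedling samples were analysed, with 6 WT libraries in the same fit. The authors deposited 1 table per library with an expected count and an FPKM per gene, per the file headers; genes at 0 are not listed and were set to 0. The submitters' processing notes name TAIR10, STAR 2.4.0, HTSeq 0.6.0 and DESeq2, without saying which made these tables, and no source used here states strand handling. Of 441 genes open to naming, 111 overlap an annotated neighbour, so their reads may be shared, and near-identical copies (LHCB1, RBCS, PIP2;2 and PIP2;3) are uncertain.

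Expected counts, as deposited, were rounded and tested with edgeR 4.0.16 (R 4.3.3): filterByExpr over the 4 groups, TMM, and the quasi-likelihood test on all 12 libraries with 1 mean per group, 8 residual degrees of freedom and Benjamini-Hochberg adjustment over the 18809 genes tested. Called means an adjusted p under 0.05. Errors after ±, unless marked SD, are approximate SEs of the log2 change. Each is the absolute change divided by the square root of the test's F statistic. The SE of the difference between the responses was obtained in the same way. Every adjusted p comes from this test, or from the same test without a named library, unless another tool is named. A gene at 0 in 1 group is given as a bound from 3 counts over the group, and a gene with 1 to 3 counts there as a ratio with its exact 95% interval; both cover counting error only. In simulated counts 52% of 2-fold and 90% of 4-fold rises, 40.8% and 89.1% of falls as large, and 0.0617% of unchanged genes were called. Only 50 genes were changed at each fold, and no shift of a whole library was simulated. These rates therefore do not carry over to data in which 51.0% of genes were called.

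The main test did not pair the replicate numbers, since no label pairs them. Deviations from the group mean correlated at 0.171, 0.384 and 0.189 between same-numbered dehydrated and control cost1 libraries (WT: 0.0479, 0.0108 and 0.0288). Unlike-numbered cost1 pairs lay between -0.298 and 0.171, so the numbers stand out for replicate 2 and little for 1 and 3. Alternatives were a replicate block, DESeq2 1.42.0, limma 3.58.1 (voom with sample weights, and log2(FPKM + 0.1) or log2(FPKM + 1)), RLE or no scaling, no filter, the cost1 libraries alone, and each library left out.

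Genes named were COST1; the 12 largest rises and falls called with and without control 2, with groups that do not overlap and at least 10 FPKM; the 5 most abundant per group by FPKM; in each of 71 gene lists the 4 smallest p, the 2 most abundant and any member called against the majority; genes called only without control 2 (6 per direction); and the 8 highest and 8 lowest in control 2. The members and lists were chosen with earlier results of these data known, and the list of cytosolic ribosomal proteins was added after the files had been seen. Promoters are RefSeq TAIR10.1, matched by locus.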

Additional observations from a re-analysis of the deposited data

How the results depend on the processing

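The counts of genes called higher and lower, in all and by at least 2-fold, stayed within 1.5 times their values under every alternative. Genes called higher numbered 4974, and 4101 (log2(FPKM + 0.1)) to 5622 (voom) under other settings; genes called lower numbered 4611, and 3354 (cost1 libraries alone) to 6027 (log2(FPKM + 1)). The difference between the genotypes had 0 calls in edgeR and 1 in DESeq2; the cause was not tested. With 1 cost1 library left out, 7608 to 10198 genes were called in all. With the replicate block in cost1, 5174 genes were called higher and 4897 lower; 9430 calls were made in both fits, 155 were lost and 641 gained, and 20 named genes changed call. The block moved the salicylate list to 6 higher from 4 and the flavonoid list to 9 from 3. Of the 441 genes open to naming, 331 kept direction and side of the threshold in every alternative, and none reversed while called; 61 of 71 list medians kept their sign. With 3 libraries a group small changes may be missed. The self-test, which found about 52% of 2-fold rises, changed far fewer genes than were called here and cannot give that rate. Shares of low genes rest on few counts.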

Other observations

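Genes often used as constant references in qPCR were not all constant. UBQ10, a polyubiquitin gene, had 3509, 4509 and 3907 CPM in dehydrated cost1 libraries, against 1419, 1578 and 1601 CPM in controls (log2 change 1.37 ± 0.14; adjusted p = 1.55e-05 in edgeR's quasi-likelihood test), and UBC9, a ubiquitin-conjugating enzyme, rose by 0.82 ± 0.14. Of 10 such genes 3 were called higher and 1 lower, beside 26.4% and 24.5% of all genes. The lower one, CBP20 (-0.35; adjusted p = 0.0481), was not called in DESeq2, with RLE scaling, without any one cost1 library other than control 2 or without any one WT library.

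Of 9 cellulose synthase genes 0 were called higher and 1 lower. That one, CESA9 (-1.01; adjusted p = 0.0396), was not called without control 2 or 3, without dehydrated replicate 2 or 3, with the replicate block (adjusted p = 0.054) or in DESeq2. CESA3 had 350, 349 and 397 CPM in dehydrated libraries, against 390, 378 and 411 CPM in controls (-0.11 ± 0.10; adjusted p = 0.421). The cruciferin gene CRA1, a seed storage protein, averaged 11.2 ± 7.0 CPM (SD, n = 3) in dehydrated libraries, against 3.03, 17.5 and 170 CPM in controls 1, 2 and 3, so control 3 stood far above the other 5 cost1 libraries for it. Other seed storage genes had reads in control 2 as well. CRU3 had 0, 6 and 1 counts in dehydrated libraries, against 2, 102 and 769 in controls. SESA3 and SESA4 were at 0 in every dehydrated library, against 0, 28 and 10 and 0, 37 and 0 counts in controls. CRA1 was not called with all libraries (-2.51; adjusted p = 0.0554), was called without control 1 (-3.07; adjusted p = 0.00848) or control 2 (-2.95; adjusted p = 0.027), and stood at 0.12 without control 3.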
